A study of Mus musculus with 9 samples.

Results

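This account covers 10 genes that mark the endothelial cells lining the liver sinusoids, or endothelial cells in general, out of 24411 genes in a table of mouse liver RNA levels. They were picked by symbol: Stab1, Stab2, Lyve1, Clec4g, Oit3, Fcgr2b, Kdr, Cdh5, Pecam1 and Cd34. All 10 were found, all 10 passed the filter on low counts, and no gene was at 0 in any library. Poly(A) RNA was measured in whole livers of 9 mice on the C57BL/6 background at 3 months of age, with 3 livers in each group. All 9 mice carried Atg7 flox/flox. The control group (cont.) had no Cre and no p62 mutation. The Atg7-KO group also carried Alb-Cre, whose albumin promoter is active in hepatocytes, so the endothelial cells of these livers were not the cells targeted for loss of the autophagy gene Atg7. The Atg7-KO;p62-S351A group, called S351A from here on, carried Alb-Cre and in addition both copies of a p62 knock-in allele that is present in every cell type and weakens the binding of p62 to KEAP1. For S351A replicates 2 and 3 the genotype entries of the labels name p62 positions that count up from the title's by 1 per replicate, and the titles were followed.

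Sinusoidal endothelial cells have pores and lack a continuous basement membrane, and they clear waste molecules from blood through scavenger receptors. When the liver is injured or scarred they can lose these features, a process known as capillarization, in which sinusoidal markers decline and Cd34, a marker of vessels with a closed wall, can appear. Several of these markers are not exclusive: Stab1, Lyve1 and Fcgr2b are also known from macrophages, Fcgr2b from B cells, Pecam1 from platelets and leukocytes, and Cd34 from fibroblasts and blood progenitors. In whole liver, fewer cells of a type and less RNA per cell cannot be told apart.

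Library totals were 1875314 to 15426566 counts in cont., 1945469 to 3675041 in Atg7-KO and 713835 to 792366 in S351A, so that depth and the p62 allele cannot be told apart. Levels are given as CPM, counts brought to a common library total, after scaling by TMM, a method that assumes that most genes do not change. The level of 3 counts, taken as the floor, lay between 0.267 and 3.70 CPM. Of the 90 values of the 10 genes, 4 were at or under 3 counts, and single values ranged from 1 to 906 counts. By their X- and Y-linked transcripts, cont. held 2 males and 1 female, and the other groups held 1 male and 2 females each. Calls are from edgeR's quasi-likelihood test and needed a Benjamini-Hochberg adjusted p below 0.05, over the 11199 genes tested, together with a change of more than 1.5-fold. Atg7 was called lower in Atg7-KO than in cont. (log2 fold change -0.74, adjusted p 0.00757) and in S351A than in cont. (-1.07, adjusted p 0.00318), but not when the libraries were scaled by their totals (adjusted p 0.829 and 0.0614).

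The 10 genes lie on several chromosomes of mm10, and all are annotated as protein coding. The stabilins, large scavenger receptors, are at chr14:31139013-31168641 on the - strand for Stab1 and at chr10:86841198-87008025 on the - strand for Stab2. Oit3, a secreted protein of sinusoidal endothelium, is also on chromosome 10, at chr10:59422958-59441778 on the - strand. Lyve1, a hyaluronan receptor, is at chr7:110850607-110863239 on the - strand, and the lectin receptor gene Clec4g is at chr8:3707064-3720651 on the - strand. Fcgr2b, which encodes the inhibitory receptor for IgG, is at chr1:170958617-170976547 on the - strand. Among the general endothelial genes, Kdr (the main receptor of VEGF-A) is at chr5:75932827-75978458 on the - strand and Cdh5 (the cadherin of endothelial junctions) at chr8:104101625-104144511 on the + strand. Pecam1, the junction protein CD31, is at chr11:106654217-106750628 on the - strand. Cd34, a sialomucin, is at chr1:194938819-194961279 on the + strand. Stab1 overlaps Nt5dc2 on the opposite strand and its estimated count was not a whole number in any of the 9 libraries, and that of Fcgr2b in 5 libraries. The strand setting of the counting was not stated, so reads of overlapping genes may be shared. Stab2, Clec4g, Cdh5, Fcgr2b and Cd34 also overlap annotated genes on the opposite strand, and the levels of these 5 genes and of Stab1 are less certain for that reason.

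The upstream sequences of Stab2 and Clec4g, which fell together in Atg7-KO livers, and of Cd34, which rose, are shown as the stretch in which endothelial factors of the ETS and GATA families would be looked for. Each is the 250 bases before the RefSeq start site (GRCm38.p6), 5′ to 3′ on the strand of the gene, and capitals mark AGGAAG or its complement CTTCCT, a core recognised by many ETS factors.
Stab2, chr10:87007943-87008192, - strand: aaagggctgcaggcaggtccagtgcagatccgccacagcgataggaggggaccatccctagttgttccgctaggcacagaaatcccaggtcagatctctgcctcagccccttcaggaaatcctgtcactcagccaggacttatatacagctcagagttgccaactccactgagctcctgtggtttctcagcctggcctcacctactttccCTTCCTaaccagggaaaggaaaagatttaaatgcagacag
Clec4g, chr8:3720652-3720901, - strand: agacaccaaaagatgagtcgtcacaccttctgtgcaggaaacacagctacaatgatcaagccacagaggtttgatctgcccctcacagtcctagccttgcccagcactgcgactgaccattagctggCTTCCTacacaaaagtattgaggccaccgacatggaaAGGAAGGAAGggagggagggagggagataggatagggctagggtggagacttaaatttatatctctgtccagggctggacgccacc
Cd34, chr1:194938571-194938820, + strand: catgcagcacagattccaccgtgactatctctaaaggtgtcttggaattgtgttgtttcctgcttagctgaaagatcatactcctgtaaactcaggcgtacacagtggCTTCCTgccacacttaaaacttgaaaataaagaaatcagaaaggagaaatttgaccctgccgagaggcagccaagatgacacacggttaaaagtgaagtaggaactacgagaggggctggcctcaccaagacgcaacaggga
RefSeq entries were found for 6 of the 10 genes. The ETS core, searched on both strands, was in 4 of these 6 (Stab1, Stab2, Clec4g and Cd34) and in 29.5% of 32851 mouse promoters of the same length. The run in Clec4g holds 2 copies of AGGAAG that share bases. The GATA core GATAA, or its complement TTATC, was in 0 of the 6 and in 22.6% of all promoters. The matches describe letters only, and genes that fell and a gene that rose both had one.

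Compared per kilobase of exon, the levels in cont. livers ran from Clec4g at 14.1 ± 5.47 CPM per kb (SD, n = 3), Stab1 at 11.4 ± 4.91 and Stab2 at 7.63 ± 2.32 down to Cd34 at 0.162 ± 0.0839. Lyve1 (5.75), Oit3 (5.66), Fcgr2b (4.85), Cdh5 (3.48), Pecam1 (1.38) and Kdr (1.31) lay between them in that order on the same scale. Neighbours in this order overlapped in their cont. libraries except Kdr and Cd34. In Atg7-KO livers Lyve1 came first at 23.1 ± 5.44 CPM per kb, above Stab1 at 15.7 ± 1.39, with no overlap between their libraries. Clec4g came next at 6.66 ± 1.62, Oit3 was at 1.74 ± 0.283, and Cd34 at 1.07 ± 0.351 stood above Kdr at 0.651 ± 0.129, although the libraries of these last 2 genes overlapped. In S351A livers Stab1 (15.7 ± 2.86) and Lyve1 (14.2 ± 3.20) led and Kdr (0.615 ± 0.425) was again last, and each gene overlapped its neighbour in the order.

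**Figure D1:**
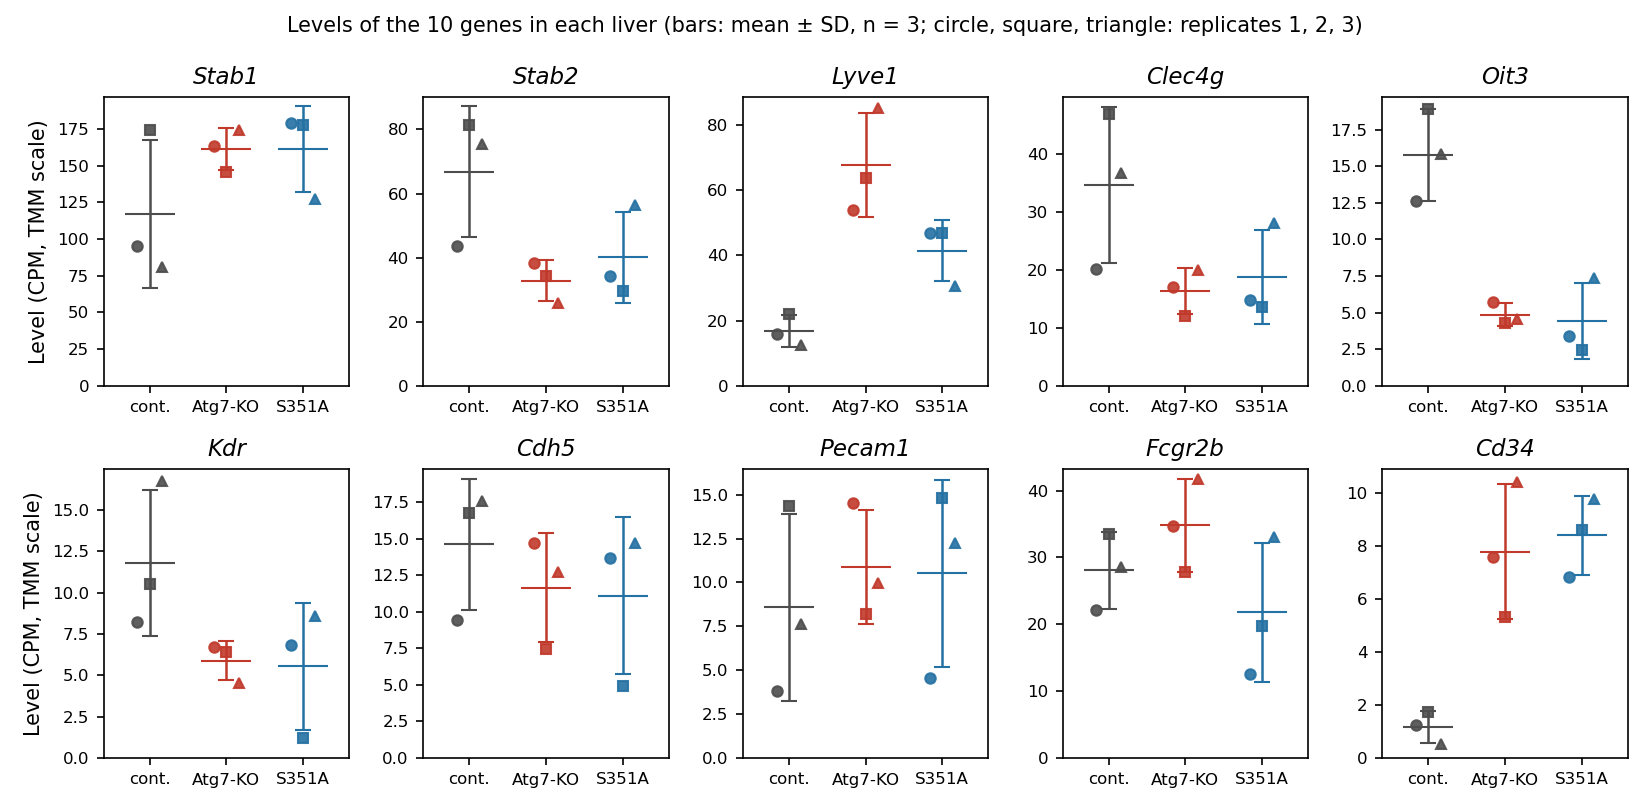
Level of each of the 10 genes in each liver, in CPM on the TMM scale, by group, with bars at the mean ± SD of 3 livers and the replicate shown by the symbol. Lyve1 and Cd34 are higher, and Oit3 is lower, in every Atg7-KO and S351A liver than in every cont. liver, whereas Cdh5, Pecam1, Fcgr2b and Stab1 overlap.

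The comparison of Atg7-KO with cont. asked how the endothelial genes stood in livers whose hepatocytes had lost autophagy. The 10 genes did not move as a block. Lyve1 and Cd34 rose, Stab2, Clec4g and Oit3 fell, and Stab1, Fcgr2b, Kdr, Cdh5 and Pecam1 were not called. The 5 genes called of 10 stand beside 38.0% called of all 11199 genes, the 2 called higher beside 19.9% and the 3 called lower beside 18.1%, so the share called among the 10 was near that of the table. The split depended on the scaling, with 4 higher and 1 lower under total library size and 3 higher and 1 lower under the size less the top 20 genes. Their median log2 fold change was -0.039, and that of all genes was -0.032. Groups did not overlap for 6 of the 10 genes, and for 51.6% of all genes.

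Lyve1 was at 15.8, 22.0 and 12.5 CPM in cont. replicates 1 to 3 and at 53.9, 63.8 and 85.0 CPM in Atg7-KO replicates 1 to 3. Every Atg7-KO liver was above every cont. liver. The fitted rise was 4.08-fold, or 2.03 on the log2 scale (SE 0.27, adjusted p 1.31e-04 by edgeR's quasi-likelihood test), and it was called under all 20 alternative settings. Cd34 was close to the floor in cont. livers, at 1.26, 1.75 and 0.534 CPM from 2, 5 and 6 counts (replicate 1 was under it), and at 7.60, 5.35 and 10.4 CPM in Atg7-KO livers from 33, 15 and 23 counts. The lowest Atg7-KO liver was above the highest cont. liver, and the log2 fold change was 2.99 (SE 0.50, adjusted p 6.30e-04), with a wide 95% interval of 1.90 to 4.07. It was called in each of the 18 alternatives that kept it.

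Oit3 was at 12.6, 18.9 and 15.8 CPM in cont. and at 5.76, 4.28 and 4.54 CPM in Atg7-KO livers. No Atg7-KO liver reached the lowest cont. liver, and the gene was 3.21-fold lower (log2 fold change -1.68, SE 0.32, adjusted p 0.00143), called in each of the 18 alternatives that kept it. Stab2, the receptor that takes up hyaluronan, was at 43.6, 81.5 and 75.4 CPM in cont. and at 38.5, 34.2 and 25.9 CPM in Atg7-KO livers. The groups did not overlap, although cont. replicate 1 was close to Atg7-KO replicate 1, and the log2 fold change was -1.03 (SE 0.28, adjusted p 0.0112). Clec4g was at 20.2, 46.8 and 36.8 CPM in cont. and at 17.05, 12.1 and 19.99 CPM in Atg7-KO livers. Here the lowest cont. liver and the highest Atg7-KO liver nearly met, and the log2 fold change was -1.11 (SE 0.32, adjusted p 0.0159).

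The falls of Stab2 and Clec4g depended on the scaling and on single livers. With total library size in place of TMM the log2 fold changes were -0.48 for Stab2 (adjusted p 0.182) and -0.56 for Clec4g (adjusted p 0.176), and neither was called. Under that scaling the median of all genes moved from -0.032 to 0.51, so a gene that stayed level relative to most others would show a rise. Leaving out Atg7-KO replicate 3 took Stab2 out of the calls (-0.90, adjusted p 0.0567). Leaving out Atg7-KO replicate 1 (-1.14, adjusted p 0.0530) or Atg7-KO replicate 2 (-0.94, adjusted p 0.0764) did so for Clec4g.

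**Figure D2:**
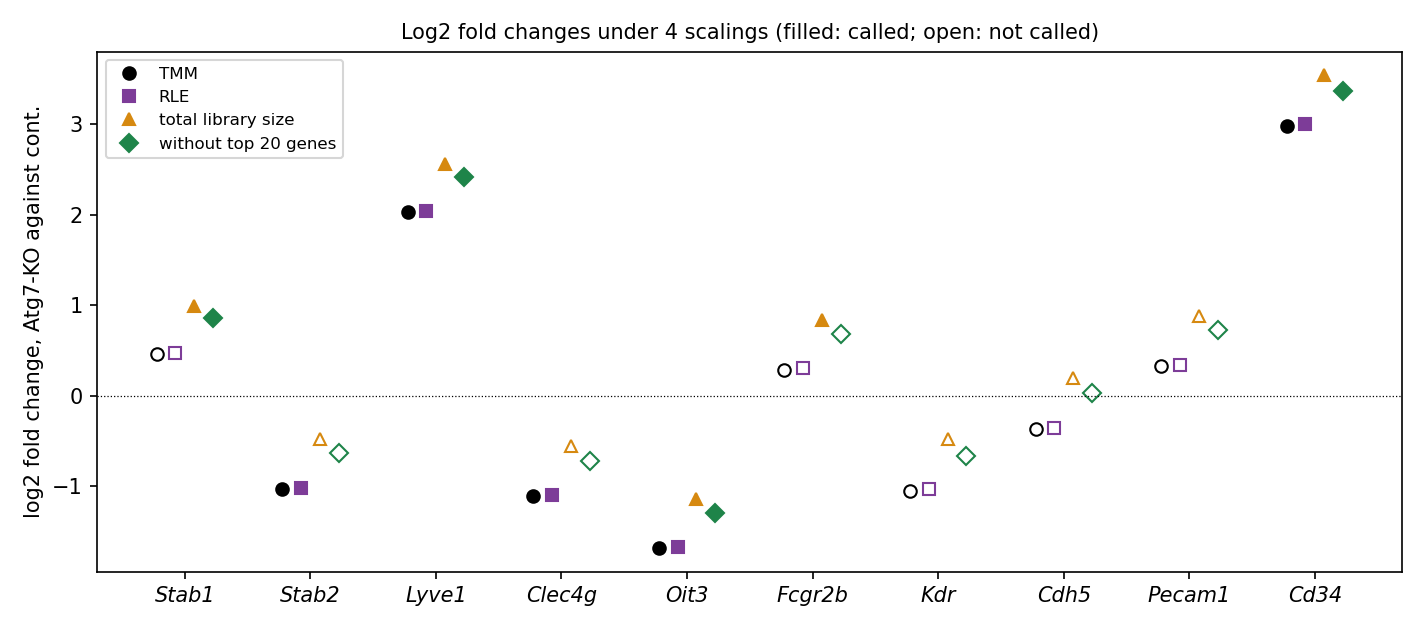
Log2 fold change of each gene in Atg7-KO against cont. under 4 ways of scaling the libraries, with filled symbols for calls. Lyve1, Cd34 and Oit3 are called under each, Stab2 and Clec4g under TMM and RLE factors, Stab1 under total library size and the size less the top 20 genes, and Fcgr2b under total library size.

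Kdr was at 8.21, 10.5 and 16.7 CPM in cont. and at 6.68, 6.42 and 4.54 CPM in Atg7-KO livers. The groups did not overlap, but the adjusted p missed the threshold (log2 fold change -1.05, SE 0.40, adjusted p 0.0527). It was called in 6 of the 18 alternatives that kept it, among them limma-voom (-1.07, adjusted p 0.0329) and the fits without cont. replicate 1 (-1.24, 0.0301), cont. replicate 2 (-1.17, 0.0445) or S351A replicate 2 (-1.08, 0.0270). Cdh5 was at 9.47, 16.8 and 17.6 CPM in cont. and at 14.7, 7.48 and 12.7 CPM in Atg7-KO livers. These ranges overlapped (log2 fold change -0.37, 95% interval -1.13 to 0.39, adjusted p 0.439). Pecam1 ran from 3.79 to 14.3 CPM in cont. and from 8.20 to 14.5 CPM in Atg7-KO livers (0.33, interval -0.61 to 1.26, adjusted p 0.587). The intervals of Cdh5 and Pecam1 include changes of more than 1.5-fold in at least 1 direction, so these data do not fix the amount of general endothelial RNA closely.

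Stab1, the family partner of Stab2, was at 95.4, 174 and 80.6 CPM in cont. and at 164, 146 and 174 CPM in Atg7-KO livers. Cont. replicate 2 was level with the highest Atg7-KO liver and the other cont. livers lay below all 3. The log2 fold change of 0.47 (SE 0.28, adjusted p 0.212) was not called, but it was called without cont. replicate 2 (0.87, adjusted p 0.0134) and with total library size (0.99, adjusted p 0.0157). Fcgr2b was at 22.1, 33.6 and 28.6 CPM in cont. and at 34.8, 27.8 and 41.8 CPM in Atg7-KO livers. Its groups overlapped (0.29, interval -0.31 to 0.88, adjusted p 0.436), and under total library size it rose (0.84, adjusted p 0.0294).

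**Figure D3:**
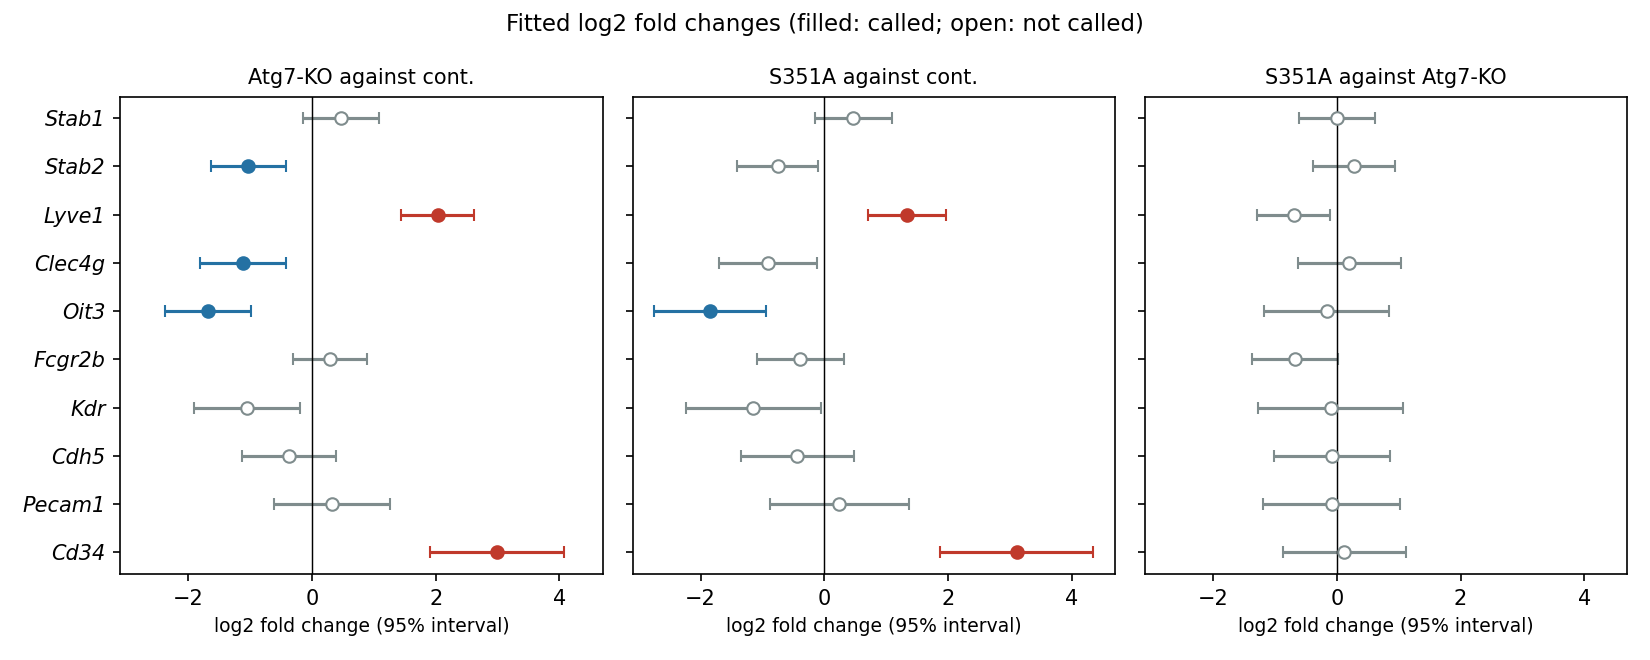
Fitted log2 fold changes of the 10 genes with 95% intervals in the 3 comparisons, filled where called. Lyve1 and Cd34 lie above 0 and Oit3 below 0 in both comparisons with cont., and in S351A against Atg7-KO the interval of Lyve1 alone leaves out 0, at -1.29 to -0.10 before adjustment.

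Ratios of counts within a library do not depend on the scaling, and they show the change of proportion among the genes as a description. For every 100 counts of Stab2 there were 36.2, 27.0 and 16.6 counts of Lyve1 in cont. livers and 140, 187 and 328 in Atg7-KO livers. Stab1 stood at 219, 214 and 107 per 100 counts of Stab2 in cont. and at 425, 426 and 672 in Atg7-KO livers. Both ratios were higher in every Atg7-KO liver than in every cont. liver. Stab1 had more counts than Stab2 in all 9 livers, while Lyve1 had fewer than Stab2 in each cont. liver and more in each Atg7-KO liver. Oit3 fell further than Stab2, from 29.0, 23.2 and 20.99 per 100 counts of Stab2 in cont. to 14.97, 12.5 and 17.5 in Atg7-KO livers. Clec4g per 100 counts of Stab2 was 46.4, 57.5 and 48.8 in cont. and 44.3, 35.4 and 77.2 in Atg7-KO livers, with overlap.

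Among the general markers, Cd34 per 100 counts of Cdh5 was 13.3, 10.4 and 3.03 in cont. and 51.6, 71.4 and 82.1 in Atg7-KO livers. Kdr per 100 counts of Cdh5 was 86.7, 62.5 and 94.9 in cont. and 45.3, 85.7 and 35.7 in Atg7-KO livers. The Cd34 ratio separated the groups and the Kdr ratio did not. In S351A livers the Lyve1 to Stab2 ratio was 137, 158 and 54.3, the Stab1 to Stab2 ratio 523, 600 and 226, and the Cd34 to Cdh5 ratio 50.0, 175 and 66.7, each above every cont. liver. S351A replicate 3 was the liver closest to cont. for the first 2 of these ratios.

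**Figure D4:**
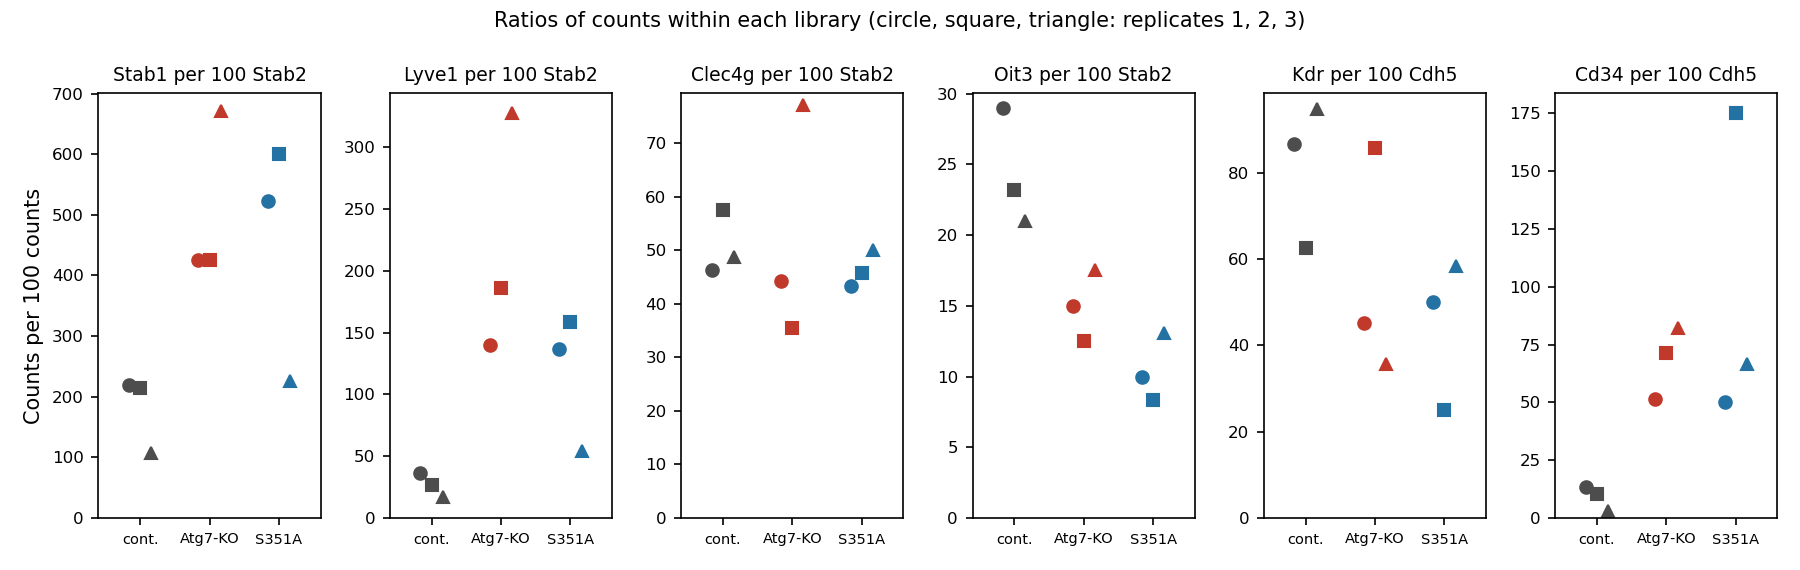
Counts of one gene per 100 counts of another within each library, on linear axes from 0, by group, with the replicate shown by the symbol. Lyve1 and Stab1 relative to Stab2 and Cd34 relative to Cdh5 are higher in all 6 livers with Alb-Cre than in the 3 cont. livers, Oit3 relative to Stab2 is lower, and Clec4g relative to Stab2 overlaps.

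The comparison of S351A with cont. shares its controls with the one above, so it is not separate evidence, and its values are given side by side. Lyve1 and Cd34 were higher and Oit3 lower, 3 genes called of 10 beside 28.6% of all genes, with 2 called higher beside 15.6% and 1 called lower beside 13.0%. Stab1 was also called higher under total library size and under the size less the top 20 genes. The median of the 10 log2 fold changes was -0.42, and that of all genes was -0.028. Groups did not overlap for these 3 genes of the 10, and for 38.0% of all genes. Lyve1 was at 46.8, 46.9 and 30.6 CPM in S351A livers, each above every cont. liver (log2 fold change 1.33, SE 0.29, adjusted p 0.00528). Cd34 was at 6.84, 8.63 and 9.80 CPM from 6, 7 and 8 counts, again above every cont. liver (3.11, SE 0.57, adjusted p 0.00197). Oit3 was at 3.42, 2.47 and 7.35 CPM from 3, 2 and 6 counts, below every cont. liver but at or under the floor in 2 of the 3 (-1.85, SE 0.41, adjusted p 0.00587). The call of Lyve1 was made under all 20 alternatives, and those of Cd34 and Oit3 in each of the 18 that kept them.

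Stab2 was at 34.2, 29.6 and 56.4 CPM in S351A livers. Replicate 3 lay within the cont. range and the other livers lay below it, and the log2 fold change of -0.76 (SE 0.30) was not called (adjusted p 0.0766). Clec4g was at 14.8, 13.6 and 28.2 CPM, with replicate 3 again inside the cont. range (-0.91, SE 0.37, adjusted p 0.0817). Both were called without S351A replicate 3, at -1.10 (adjusted p 0.0241) for Stab2 and -1.33 (adjusted p 0.0319) for Clec4g. Both were also called without cont. replicate 1, at -0.99 (adjusted p 0.0190) and -1.16 (adjusted p 0.0195).

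Kdr was at 6.84, 1.23 and 8.58 CPM in S351A livers, from 6, 1 and 7 counts, and overlapped cont. (-1.15, interval -2.24 to -0.061 before adjustment, adjusted p 0.104). Stab1 was at 179, 178 and 127 CPM (0.47, adjusted p 0.241) and Fcgr2b at 12.5, 19.7 and 33.1 CPM (-0.39, adjusted p 0.394). Cdh5 was at 13.7, 4.93 and 14.7 CPM (-0.44, adjusted p 0.463) and Pecam1 at 4.56, 14.8 and 12.3 CPM (0.24, adjusted p 0.765). All 4 overlapped cont., and Cdh5 and Pecam1 rest on 4 to 12 counts per S351A library.

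The direct comparison of S351A with Atg7-KO asked whether the p62 allele altered the levels in livers with Atg7 deleted in hepatocytes. None of the 10 genes was called by edgeR's quasi-likelihood test or under any alternative that tested it (17 to 20 of the 20 for each gene), DESeq2 and limma-voom included. Of all 11199 genes, the edgeR fit called 1 (0.00893%), DESeq2 called 40 and limma-voom 0. With no filter, edgeR called 98 of 19081 genes. At an unadjusted p under 0.05, Lyve1 was the 1 gene of the 10, beside 6.60% of all genes. Lyve1 was lower in S351A than in every Atg7-KO liver, by a log2 fold change of -0.70 (p 0.0248, adjusted p 0.715), and it was the 1 gene of the 10 whose groups did not overlap, beside 16.9% of all genes. Fcgr2b had a log2 fold change of -0.68 with overlapping groups (interval -1.37 to 0.016, adjusted p 0.757). The intervals of the other genes were wide: -0.61 to 0.62 for Stab1, -0.39 to 0.94 for Stab2, -0.63 to 1.04 for Clec4g, -1.17 to 0.84 for Oit3 and -0.87 to 1.11 for Cd34. Kdr (-1.27 to 1.07), Cdh5 (-1.01 to 0.86) and Pecam1 (-1.19 to 1.02) were of similar width. Each of these intervals includes a change of 1.5-fold in at least 1 direction, so a change of that size was not excluded for these genes.

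Correlations over the 9 livers include the differences between groups, so genes called in the same direction were bound to correlate. Pearson's r of log2 CPM was 0.887 for Stab2 and Clec4g, 0.882 for Stab2 and Oit3 and 0.872 for Clec4g and Oit3, and it was 0.874 for Lyve1 and Cd34. Kdr and Cdh5 had an r of 0.814. Lyve1 and Stab2 were opposed, at -0.817, as were Oit3 and Cd34, at -0.830. These are descriptions over livers that also share scaling and depth. Of 8785 genes with a mean of at least 10 CPM outside the 10, those most like Stab2 were Rbm5 (r 0.968), Nisch (0.960), Acacb (0.959), Ganc (0.950) and Pxmp2 (0.948), and those most like Cd34 were Col6a3 (0.979), Trem2 (0.978), Mndal (0.974), Rhob (0.971) and Mmp7 (0.971). None of these is known mainly as an endothelial marker. Col6a3 encodes a matrix collagen, Trem2 a receptor of macrophages and Mmp7 a matrix protease.

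Of 15 further genes known from sinusoidal endothelium, 12 were tested in Atg7-KO against cont., with 5 called lower (18.1% of all genes), 1 called higher (19.9% of all genes) and a median log2 fold change of -0.87. By mean level the 4 leading genes were Maf (0.64, adjusted p 0.0702), Rspo3 (0.36, adjusted p 0.551), Ehd3 (-1.17, adjusted p 0.00640) and Flt4, the receptor of VEGF-C (0.60, adjusted p 0.0419). The remaining genes called lower, named after their values were seen, were the nuclease gene Dnase1l3 (-1.21), Adgrl4 (-1.12), Bmp2 (-1.07) and the transcription factor gene Gata4 (-1.05). With total library size only Dnase1l3 of these was called lower, and Flt4 and Maf were called higher. The number called lower was 3 without cont. replicate 2 and 2 when either replicate 1 or replicate 2 of Atg7-KO was left out. In S351A against cont. 4 of the 12 were called lower (Ehd3, Dnase1l3, Adgrl4 and Mrc1), beside 13.0% of all genes, and none higher, with a median of -0.80. That number was 2 without cont. replicate 2, 2 when either replicate 1 or replicate 3 of S351A was left out, and 1 without its replicate 2. With total library size, and with the size less the top 20 genes, none of the 12 was called lower in S351A and Maf was called higher.

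Of 20 general endothelial genes, 16 were tested in Atg7-KO against cont., with a median of -0.12, 1 called higher and 2 lower, beside 38.0% of all genes called. Eng (0.11), Robo4 (-0.26) and Egfl7 (-0.52) were not called, and Ptprb, a phosphatase of endothelial junctions, was lower (-0.67, adjusted p 0.0119). The others, named after their values were seen, were Tek at -1.02 and Cd93 at 1.82 (adjusted p 2.88e-04). With total library size the median of this list was 0.42, below the shift of all genes, and neither Ptprb nor Tek was called (adjusted p 0.601 and 0.286). Without cont. replicate 1 the number called lower was 4, without cont. replicate 2 it was 1, and without Atg7-KO replicate 2 it was 0, while Cd93 was called under every scaling. Cd93 was the 1 gene of this list called in S351A against cont. (1.38, adjusted p 0.00640).

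Of 10 genes of continuous or activated endothelium, 5 were tested in Atg7-KO against cont. Of these, 2 were called higher and none lower, beside 38.0% of all genes called and 19.9% called higher. They were Icam1 (2.22, adjusted p 9.00e-06) and Vcam1 (1.70, adjusted p 0.00545), adhesion molecules that bind leukocytes. Plvap, the protein of the diaphragms that close endothelial pores, had a value of -0.28 (adjusted p 0.437) and Vwf of -0.068 (adjusted p 0.942). Icam1 was also called higher in S351A than in cont. (1.94), the 1 gene called of these 5, beside 28.6% of all genes. Vcam1 was at 1.23 in that comparison and was not called (adjusted p 0.0634). It was called there with total library size (adjusted p 0.0154), in DESeq2 and in limma-voom. Both adhesion genes are made by other cells of inflamed liver as well.

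Of 15 growth and Notch signals, 10 were tested in Atg7-KO against cont., with 3 called higher and 1 lower, a share close to the 38.0% of all genes called. Vegfa, the ligand of Kdr that hepatocytes make, was lower (-1.37, adjusted p 0.00564), and Hes1, a Notch target, was higher (1.23, adjusted p 0.0315). Notch1 (0.15) and Vegfb (0.13) were not called. With total library size 7 genes of this list were called higher and none lower, with Notch1 at 0.69 (adjusted p 0.0332) and Vegfb at 0.67 (adjusted p 0.0311), and with the size less the top 20 genes 5 were called higher and 1 lower. Jag1, a Notch ligand (1.47), and Vegfc, the ligand of Flt4 (1.205), were the other genes called higher and are named after their values were seen. The same 4 genes were called in S351A against cont., beside 28.6% of all genes, with Vegfa at -0.94, Hes1 at 1.40, Jag1 at 1.53 and Vegfc at 1.44. With total library size Vegfa was not called in either comparison (adjusted p 0.0524 and 0.315). Its call in S351A was close to the threshold (adjusted p 0.0485). It was lost with RLE factors (0.0505), with the size less the top 20 genes (0.190) and in limma-voom. With single libraries left out, the list kept a gene called lower in S351A only without cont. replicate 1 or cont. replicate 2. The 3 genes called higher in Atg7-KO became 1 without cont. replicate 3 and 0 without Atg7-KO replicate 1, and the 3 in S351A became 1 without cont. replicate 3, and 0 or 1 when replicate 1 or replicate 2 of S351A, respectively, was left out. No gene of these 4 lists was called between S351A and Atg7-KO.

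**Figure D5:**
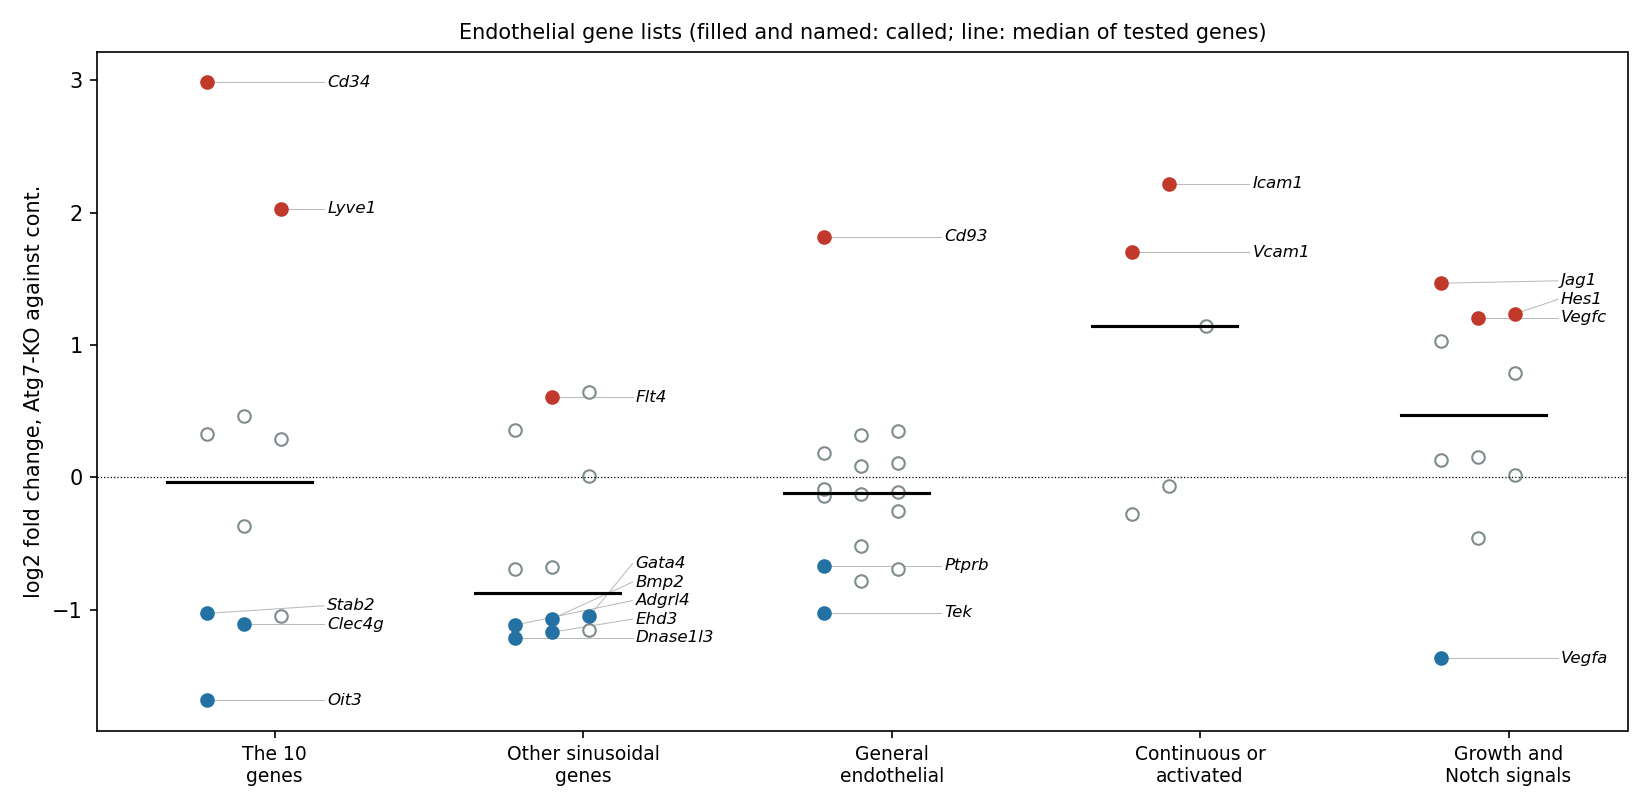
Log2 fold change in Atg7-KO against cont. of each tested gene of the 10 genes and of 4 further endothelial lists, filled and named where called, with a line at the median of each list. The list of other sinusoidal genes has a median of -0.87 with 5 genes called lower, and the 10 genes spread from -1.68 for Oit3 to 2.99 for Cd34.

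Markers of other cell types moved in the same livers. Of 10 stellate cell and fibroblast markers 6 were called higher in Atg7-KO, beside 19.9% of all genes, and none lower. All 10 were called higher with total library size, and 9 with the size less the top 20 genes. Their summed level was 264 to 556 CPM in cont., 778 to 1146 in Atg7-KO and 858 to 1241 in S351A livers. Their leading genes were Dcn (1.24, called) and Reln (0.65, not called with TMM), and Col1a1, chosen after its values were seen, rose from 5.68 ± 4.39 to 92.4 ± 7.17 CPM (SD, n = 3). These values moved with Cd34, and their part in its rise was not tested. Of 9 macrophage markers 4 were called higher (Csf1r, Adgre1, Cd68 and Lyz2) and 1 lower (Timd4) in Atg7-KO, beside 19.9% and 18.1% of all genes, while Clec4f, which defines Kupffer cells, had a value of -0.16 (adjusted p 0.670). Their summed level was 219 to 335 CPM in cont., 292 to 382 in Atg7-KO and 263 to 294 in S351A livers. The ranges of the sum overlapped. Clec4f, its leading gene, had means of 142, 127 and 92.9 CPM in cont., Atg7-KO and S351A, and Csf1r had means of 31.6, 85.1 and 69.7. The 4 markers called higher in Atg7-KO were also called higher in S351A against cont., beside 15.6% of all genes, and none was called lower. The part of these markers in the levels of Lyve1, Stab1 and Fcgr2b was not tested.

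Platelet markers summed to 8.09 to 26.2, 9.54 to 12.2 and 11.03 to 22.8 CPM in the 3 groups, with 2 of 4 tested (Itga2b and Ppbp) and neither called. Their part in the level of Pecam1 was not tested. All 5 ductular markers were called higher in Atg7-KO (Spp1 4.37, Sox9 2.92), beside 19.9% of all genes. Their sums were 46.8 to 82.7 CPM in cont., 810 to 1193 in Atg7-KO and 714 to 1185 in S351A livers. All 6 hepatocyte markers were called lower in Atg7-KO (Alb -1.17, Apoa1 -1.22), beside 18.1% of all genes, Alb not with total library size (adjusted p 0.156). Their sums were 46569 to 102589 CPM in cont., 30620 to 37680 in Atg7-KO and 28763 to 42804 in S351A livers. Of 5 erythroid genes, 3 were tested and 2 called lower in Atg7-KO (Hba-a2 -2.07 and Alas2 -3.27), beside 18.1% of all genes. Hba-a1 was at 0 counts in every library. The ductular, hepatocyte and stellate cell sums did not overlap between cont. and Atg7-KO livers, and their part in the levels of the 10 genes was not tested.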

How the data were processed

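Poly(A) RNA of 9 livers had been sequenced, with 3 mice per group, and groups and replicate numbers were taken from the titles. The authors trimmed reads with Trim Galore, mapped them to mm10 with STAR and quantified genes with RSEM. The deposited values are expected counts, not scaled between libraries. Of the values in a library 4.40% to 7.75% were not whole, and all were rounded. The annotation, strand setting and tool versions were not given in the sources used here.

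Counts were analysed in edgeR 4.0.16 (R 4.3.3). Of all genes, 11199 passed filterByExpr (minimum count 10, minimum total 15). Libraries were scaled by TMM, and all 9 entered a single quasi-likelihood fit with the 3 groups as its terms. The groups thus shared 1 spread per gene, although cont. livers differed more among themselves. The mean chi-square per gene between 2 livers, against counting error alone, was 46.6 to 122 in cont. It was 2.31 to 6.97 in Atg7-KO and 4.89 to 9.14 in S351A, and it grows with depth. Hepatocyte markers summed to 46569 CPM in cont. replicate 1, and to 102589 and 98442 in replicates 2 and 3. Standard errors and 95% intervals come from the F statistic, before any adjustment. Library totals are given above, and 3 counts were taken as the floor, which reflects counting error alone because the reads carry no molecular identifiers. Log2 CPM used a prior count of 2. Positions, exon lengths and overlaps came from GENCODE M21, where 23376 of 24411 symbols matched, all 10 genes included. Promoters came from RefSeq. The fit was tested on simulated counts.

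The 10 genes were all named. From each further endothelial list the 4 tested genes with the highest mean level were named, from each list of another cell type the 2 such genes and any gene at 0 throughout, and the 5 genes most like Stab2 and Cd34. A further marker list is not reported here. The members and lists were chosen with earlier results of these data known. The alternatives changed the tool (DESeq2 1.42.0, or limma-voom from limma 3.58.1), the scaling (RLE factors, the total of each library, or that total less the top 20 genes), the filter (none, or 10 counts or more throughout), the model (replicate number or sex as a covariate, or the 6 compared libraries alone), the depth (thinning to 713835 counts), the thresholds, the prior count (0.5) and the libraries (each left out in turn).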

Additional observations from a re-analysis of the deposited data

How the results depend on the processing

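Library scaling and depth set the limits of these results: counts of Cd34, Kdr, Oit3, Cdh5 and Pecam1 were below 10 in some libraries, and depth differed with the p62 allele. In Atg7-KO against cont. the median log2 fold change of the 10 genes was 0.52 with total library size, 0.35 when the top 20 genes were kept out of the library size, 0.37 with at least 10 counts in every library (5 genes tested) and 0.53 after thinning to the smallest library (7 genes tested), where the causes other than fewer genes tested were not examined. The number called was 3 with at least 10 counts in every library, 2 after thinning and 3 at an adjusted p of 0.01. Cdh5 turned to 0.20 with total library size and 0.028 without the top 20 genes, uncalled.

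In S351A against cont. the median was 0.089 with total library size. The number called was 6 with no filter, 1 with at least 10 counts in every library, 1 after thinning, and between 3 and 5 when single libraries were left out, the cause of which was not tested. Uncalled values changed sign for Cdh5 (0.069 with total library size), Fcgr2b (0.11 with total library size, 0.011 after thinning) and Pecam1 (range -0.11 to 0.68 without single libraries). In S351A against Atg7-KO Stab1, at 0.0027, was -0.054 with total library size, -0.050 without the top 20 genes, -0.054 with no filter, -0.011 with at least 10 counts in every library, -0.0076 in limma-voom, -0.0011 after thinning and -0.081 to 0.14 without single libraries. On leaving out single libraries the ranges were -0.32 to 0.27 for Cdh5, -0.54 to 0.36 for Kdr, -0.41 to 0.29 for Pecam1, -0.089 to 0.36 for Cd34, -0.73 to 0.11 for Oit3, -0.20 to 0.39 for Clec4g and -0.056 to 0.45 for Stab2, none called.

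The main fit did not use replicate numbers as pairs, and whether they pair the samples was not settled. Of 9 pairs with the same number, 5 had deviations from the group means that correlated above 0.1 (range -0.041 to 0.31). The 3 pairs of replicate 1 were at 0.25, 0.24 and 0.31. Replicate 1 was male and replicate 2 female in every group, so number and sex cannot be told apart there. With replicate number as a block, 5 of the 10 genes were called in Atg7-KO against cont. and 3 in S351A against cont., as without it, and Stab1 in S351A against Atg7-KO was -0.031. In the further endothelial lists the block added Maf to the genes called higher and took Vegfc out, in both comparisons with cont. It also added Vcam1 in S351A against cont.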
